A study of Xenopus laevis with 32 samples.

Results

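The genes lef1 and sp8 were followed in amputated tails of Xenopus laevis embryos, an allotetraploid frog in which most genes are kept as a pair of homeologs, marked .L and .S. The 4 members were chosen by name: lef1.L, lef1.S, sp8.L and sp8.S, out of 27467 genes listed in both raw count tables. All 4 were among the 21231 genes that passed the filter on low counts. Lef1 is a DNA-binding partner of beta-catenin through which Wnt signals switch target genes on, and it represses those genes when beta-catenin is missing. Sp8 is a zinc-finger transcription factor of the Sp family that acts in the epidermis at the tip of limb buds and fins, where Wnt and Fgf signals meet. Both genes are known from the regeneration-organizing cells, an epidermal cell population that gathers at the amputation plane of tadpole tails.

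The samples came from 2 periods, regeneration and refractory, the second being a stage at which tadpoles fail to regrow a cut tail. In each period tails were sampled 0, 0.5, 6 and 72 h after amputation, with 4 libraries per group named A to D and total RNA of 20 embryos pooled in each. All groups carried the same treatment, amputation, and the labels give no genotype or drug. Unamputated tails of a later time were not among the groups, so a change from 0 h includes whatever normal development brought over the same hours. The labels' extraction protocol names the regenerative stage for every sample, so refractory is here the labelled period, and the stage of those embryos is not settled. The labels call the 4 libraries of a group biological repeats.

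Total counts per library ran from 1868637 to 4022871. The 5 libraries not in the authors' normalized tables are regeneration 0 h A, 0.5 h A and 6 h B, and refractory 0.5 h A and 72 h A. They differed from their groups in genes that a tail should lack, though refractory 0.5 h A did so less clearly. Over 35 retina and lens genes, the summed level of each of the 5 was the highest of its group: 1454, 1571 and 1661 CPM (counts scaled to a common library size) in the regeneration libraries and 1226 and 1593 CPM in the refractory ones. Refractory 0.5 h A, at 1226 CPM, lay below refractory 0 h A, at 1390 CPM. Its sum over 30 forebrain genes, 571 CPM, was the lowest of its group. For the rest of the 5, the forebrain sums were the highest of their groups, at 817, 801, 781 and 786 CPM. The retina and lens genes were not near 0 in the other libraries either. Rhodopsin (rho.L), a photoreceptor pigment, had counts in all 32 libraries at 130 to 375 CPM. Of the 35 retina and lens genes 25 had a count in every library, as did 22 of 30 forebrain genes. Some muscle and posterior genes had counts in all 32 libraries as well. The muscle actin actc1.L ran from 9450 to 34822 CPM and the posterior patterning gene hoxc10.L from 9.16 to 71.1 CPM. Counts of tbxt.L and tbxt.S, also looked at as posterior genes, were found in 28 and 30 of the 32 libraries. Their medians were 2.34 and 3.74 CPM. The tissue is called tail only because the labels do, with RNA of anterior genes in every library. How much those genes bear on lef1 and sp8 was not tested beyond the fits given with the results below. In bulk samples like these, fewer cells of a type and less RNA per cell cannot be told apart.

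Levels of the members are CPM of the deposited counts, scaled to library sizes adjusted by TMM (trimmed mean of M-values). CPM is not scaled by gene length, so levels were compared across groups for 1 gene at a time and never between genes. Changes are log2 values with their standard error (SE). Adjusted p-values come from edgeR's quasi-likelihood test, two-sided, with Benjamini-Hochberg adjustment over all genes tested, and a gene was called when its adjusted p was under 0.05. By comparison, 637 to 3027 of the 21231 genes tested had an unadjusted p under 0.05 in that test. Shares of all genes called are those of this edgeR fit over all 32 libraries, and do not hold for the alternative fits. DESeq2 called 0 to 999 genes in a comparison.

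**Figure D1:**
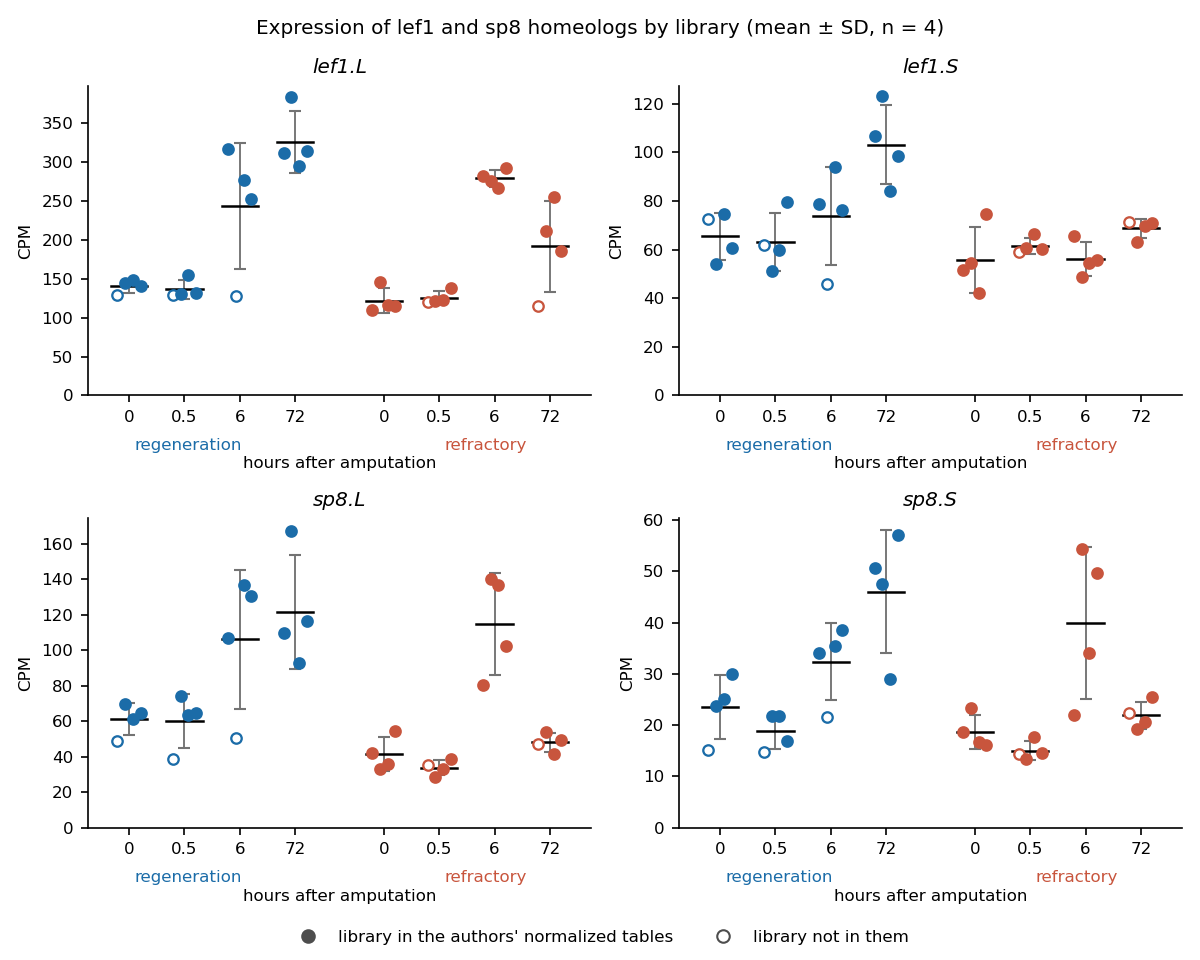
CPM of lef1.L, lef1.S, sp8.L and sp8.S in each library, by time after amputation in the regeneration and refractory periods, with bars for the mean and SD of 4 libraries and the libraries not in the authors' normalized tables drawn as open points. The refractory libraries of lef1.L and sp8.L are high at 6 h, while at 72 h the regeneration libraries lie above the refractory ones for all 4 genes.

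Before any response, at 0 h, the regeneration tails held lef1.L at 129, 145, 148 and 141 CPM in libraries A to D, and the refractory tails at 110, 147, 117 and 115 CPM. The ranges overlapped, and the log2 difference, refractory minus regeneration, was -0.20 (adjusted p = 0.86). The level of sp8.L was 48.9, 69.8, 61.1 and 64.8 CPM in regeneration tails and 42.0, 33.4, 35.7 and 54.6 CPM in refractory tails. Its ranges overlapped too, with a log2 difference of -0.56 ± 0.23 (SE; adjusted p = 0.41). None of the 4 members was called at 0 h, where 0.669% of all genes tested were called; 1 member had an unadjusted p under 0.05, and DESeq2 called 0. In the 27 libraries of the authors' normalized tables sp8.L was called, at -0.65 (adjusted p = 0.034). The summed CPM of 28 epidermis markers was also lower in most refractory libraries at 0 h. It ran from 1605 to 1825 CPM there and from 1765 to 3246 CPM in regeneration tails.

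At 0.5 h no member was called in either period. In the regeneration period the log2 changes from 0 h ran from -0.31 for sp8.S to -0.02 for sp8.L, and in the refractory period from -0.33 for sp8.S to 0.14 for lef1.S. The background was 0.0612% of genes called in regeneration tails and 0.132% in refractory tails, and 0 of the 4 members had an unadjusted p under 0.05 or a DESeq2 call in either. Between the periods at this time sp8.L was at 38.8, 74.2, 63.3 and 64.6 CPM in regeneration libraries and at 35.3, 28.3, 33.1 and 38.7 CPM in refractory ones. The lowest regeneration library, A, lay just above the highest refractory one, so the groups did not overlap. The log2 difference was -0.83 ± 0.23 (adjusted p = 0.063), against 1.18% of all genes called. Without regeneration 0.5 h A it was -0.99 and was called (adjusted p = 0.010), as in the 27 libraries (-1.01, adjusted p = 0.00048); DESeq2 called 0 members here, and 1 had an unadjusted p under 0.05.

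By 6 h the refractory tails showed the clearest rise: lef1.L, sp8.L and sp8.S were called, 3 of the 4 members against 2.45% of all genes tested. The level of lef1.L was 282, 276, 267 and 292 CPM at 6 h, against 110, 147, 117 and 115 CPM at 0 h. Every 6 h library stood well above every 0 h library, and the 6 h libraries lay close to each other. The change was 2.28-fold, a log2 change of 1.19 ± 0.18 (SE; adjusted p = 3.28e-05).

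The refractory rise of sp8.L was 2.77-fold. Its 6 h libraries were at 80.6, 140, 137 and 102 CPM and its 0 h libraries at 42.0, 33.4, 35.7 and 54.6 CPM. The groups did not overlap, though the 6 h libraries were spread more widely than those of lef1.L. The log2 change was 1.47 ± 0.23 (adjusted p = 2.06e-05). Its homeolog sp8.S was at 21.9, 54.4, 34.0 and 49.6 CPM at 6 h and at 18.7, 23.4, 16.7 and 16.1 CPM at 0 h. Library A at 6 h lay below library B at 0 h, so these groups overlapped by that library. The log2 change was 1.08 ± 0.27 (adjusted p = 0.011). This call was lost without refractory 0 h C (adjusted p = 0.053), without 6 h B (0.118) and without 6 h D (0.081).

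The refractory lef1.S did not share the rise of lef1.L. It was at 65.8, 48.8, 54.4 and 55.6 CPM at 6 h and at 51.8, 54.4, 42.1 and 74.5 CPM at 0 h. The 6 h libraries all lay within the range of the 0 h libraries. The log2 change was 0.01 ± 0.19, with a 95% interval from -0.36 to 0.38 (adjusted p = 0.99), and DESeq2 did not call it. Epidermis markers moved at the same time: their summed CPM over 28 genes ran from 1605 to 1825 at refractory 0 h and from 2860 to 3831 at 6 h, with 24 of the 28 having a count in every library. With this sum as a covariate, an alternative chosen after seeing the data, lef1.L was still called at 0.73 (adjusted p = 0.0052) and sp8.L at 0.70 (adjusted p = 0.035), while sp8.S was not at 0.49 (adjusted p = 0.49).

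In regeneration tails at 6 h the same comparison was less even, because 1 library stood apart. The level of lef1.L was 317, 128, 278 and 252 CPM at 6 h, against 129, 145, 148 and 141 CPM at 0 h. Libraries A, C and D were above every 0 h library, and library B, not in the authors' normalized tables, was below all of them. Over the 4 libraries the change was 1.74-fold, a log2 change of 0.80 ± 0.18 (adjusted p = 0.035). Leaving out any single library other than 6 h B took the adjusted p to between 0.116 and 0.226. Leaving out 6 h B raised the log2 change to 1.01, which was called. It was 0.79 with adjusted p = 0.33 in a fit of the 2 groups alone, and 0.96 (adjusted p = 6.89e-08) in the 27 libraries.

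The level of sp8.L followed the same pattern in regeneration tails, at 107, 50.7, 137 and 130 CPM at 6 h and 48.9, 69.8, 61.1 and 64.8 CPM at 0 h. Library B was again the lowest of its group, here within the 0 h range, and the other libraries lay above that range. The log2 change was 0.80 ± 0.22 and was not called (adjusted p = 0.13). It was called without 6 h B, at 1.03 (adjusted p = 0.00039), and in the 27 libraries, at 0.92 (adjusted p = 0.00087). The changes of sp8.S, 0.47 ± 0.27 (adjusted p = 0.81), and of lef1.S, 0.17 ± 0.18 (adjusted p = 0.97), were not called. So 1 of 4 members was called at regeneration 6 h, where the background was 0.273% of genes tested. Library 6 h B also had the lowest summed epidermis markers of its group, 1696 CPM in a range that reached 4574 CPM, and the highest retina and lens sum; their part in its low lef1.L and sp8.L was not tested.

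**Figure D2:**
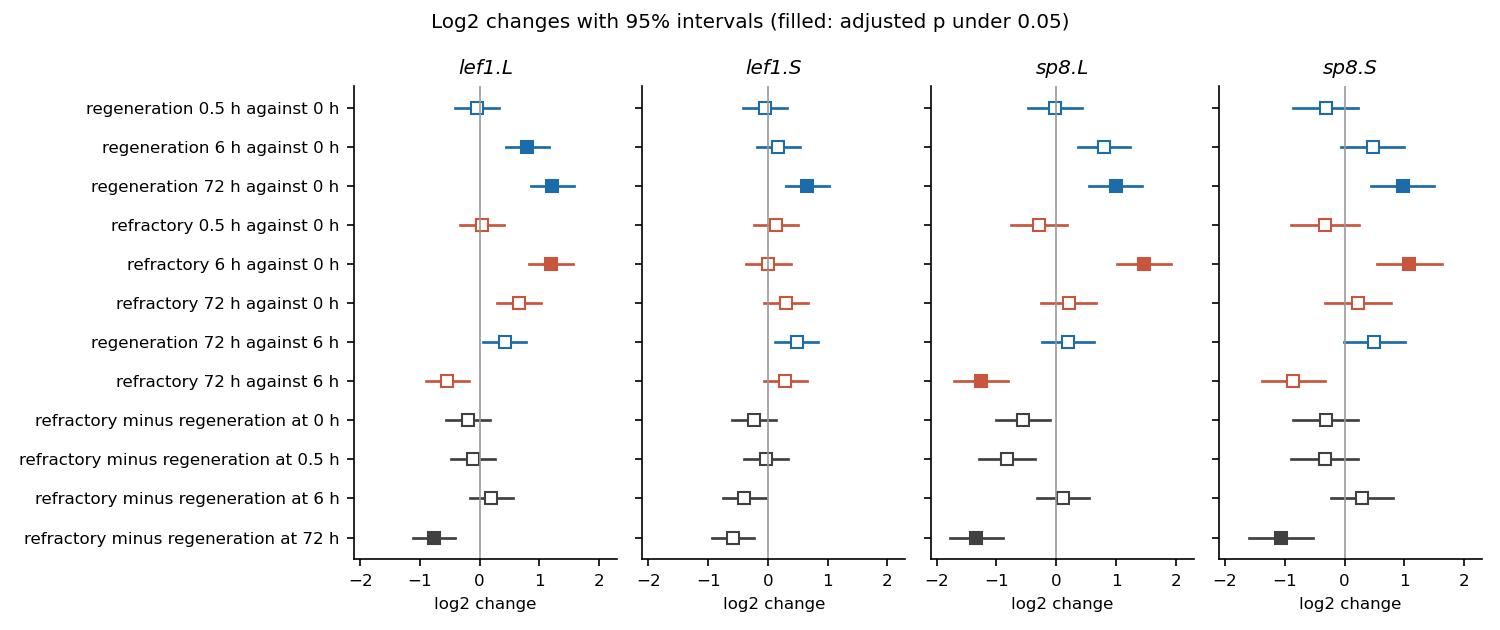
Log2 change of each member against 0 h at 0.5, 6 and 72 h in both periods, with 95% intervals of the edgeR fit over 4 libraries per group. At 6 h the refractory points of lef1.L and sp8.L, 1.19 and 1.47, lie above the regeneration points, both 0.80, and at 72 h the regeneration points of all 4 genes lie above the refractory points. Without regeneration library 6 h B the regeneration 6 h values of lef1.L and sp8.L were 1.01 and 1.03.

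The direct comparison at 6 h did not separate the periods. The log2 differences in level, refractory minus regeneration, were 0.19 for lef1.L, -0.39 for lef1.S, 0.11 for sp8.L and 0.29 for sp8.S, and none was called. Over all genes tested 1.83% were called at this time; 1 member, lef1.S, had an unadjusted p under 0.05, and DESeq2 called 0. The difference between the periods in the 6 h change was 0.39 ± 0.25 for lef1.L and 0.67 ± 0.31 for sp8.L (adjusted p = 0.82), with 0.0612% of all genes called. It was not called for any member, while 1 had an unadjusted p under 0.05 and DESeq2 called 0. Over the omissions of 1 library it ran from 0.17 to 0.54 for lef1.L and from 0.43 to 0.84 for sp8.L. Without regeneration 6 h B the differences in level at 6 h were -0.02 for lef1.L and -0.12 for sp8.L. The larger fold in refractory tails at 6 h is therefore not shown to differ from that in regeneration tails. For the 0.5 h change, 0% of all genes were called for such a difference; edgeR gave 706 genes, and 0 members, an unadjusted p under 0.05, and DESeq2 called 0 genes.

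At 72 h all 4 members were higher than at 0 h in regeneration tails, 4 called of 4 against 3.85% of all genes. The level of lef1.L was 312, 384, 295 and 314 CPM, the highest group mean of this gene and more than every library at 0 h. Its change was 2.32-fold, a log2 change of 1.22 ± 0.18 (adjusted p = 1.84e-05). The level of lef1.S was 107, 123, 84.3 and 98.7 CPM at 72 h and 72.7, 54.1, 74.5 and 60.5 CPM at 0 h, without overlap. Its log2 change of 0.66 ± 0.18 (adjusted p = 0.019) was the only call of lef1.S in any of the 15 comparisons. That call was lost without 0 h B (adjusted p = 0.093), 0 h D (0.071), 72 h A (0.051) or 72 h B (0.131).

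For sp8 at regeneration 72 h, sp8.L stood at 110, 167, 92.6 and 117 CPM, above every 0 h library. Its log2 change was 0.99 ± 0.22 (adjusted p = 0.0028), or 1.99-fold. The level of sp8.S was 50.7, 47.4, 29.0 and 57.0 CPM at 72 h and 15.1, 23.8, 25.1 and 30.04 CPM at 0 h. Library C at 72 h lay just below library D at 0 h, and the other 72 h libraries lay above. The log2 change of sp8.S was 0.97 ± 0.26 (adjusted p = 0.017). That call was lost without 0 h A (adjusted p = 0.117), 72 h A (0.059), 72 h B (0.054) or 72 h D (0.092), and in the 27 libraries (0.80, adjusted p = 0.062), which called 3 members. With the summed retina, lens and forebrain genes as a covariate, chosen after seeing the data, lef1.S (0.57, adjusted p = 0.062) and sp8.S (0.75, adjusted p = 0.118) were not called. Muscle moved the other way: the summed tail mesenchyme and muscle level over 17 genes ran from 48574 to 72820 CPM at 0 h and from 36470 to 49300 CPM at 72 h. Of the 17 genes 4 fell and 0 rose, where 473 of all 21231 genes fell and 345 rose. The 4 were actc1.L (log2 -1.15, adjusted p = 4.78e-06), actc1.S, myod1.L and myh4.L. The part of this fall in the members' rise was not tested.

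In refractory tails at 72 h no member was called against 0 h, where 1.65% of all genes were. Of the members 1 had an unadjusted p under 0.05 and DESeq2 called 1, and over all genes DESeq2 called 489. Both member results belonged to lef1.L, at 115, 212, 255 and 186 CPM at 72 h. Library A, not in the authors' normalized tables, lay within the 0 h range, and the others lay above it. The log2 change was 0.65 ± 0.18 (adjusted p = 0.053). It was called without refractory 72 h A (0.83, adjusted p = 0.00045), without 0 h B (0.75, adjusted p = 0.031) and in the 27 libraries (0.82, adjusted p = 4.04e-07). The log2 changes of lef1.S, sp8.L and sp8.S were 0.30, 0.21 and 0.23, with overlapping groups. The summed muscle level ran from 62753 to 96939 CPM at refractory 0 h and from 41962 to 48789 CPM at 72 h.

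Between 6 h and 72 h the refractory tails lost the sp8.L rise. From 80.6, 140, 137 and 102 CPM at 6 h, sp8.L went to 47.4, 54.2, 41.4 and 49.4 CPM at 72 h. All of the 72 h libraries were below all of the 6 h libraries. The log2 change was -1.26 ± 0.22 (adjusted p = 0.00025), the 1 member called, against 2.26% of all genes. The log2 change of sp8.S, -0.86 ± 0.27 (adjusted p = 0.071), was not past the threshold over all libraries and was called without refractory 6 h A (-1.06, adjusted p = 0.018). The log2 change of lef1.L was -0.54 ± 0.18 (adjusted p = 0.117), without overlap, and it was called without refractory 72 h C (-0.70, adjusted p = 0.022). DESeq2 called 3 members and 693 of all genes, where edgeR called 479. By edgeR 3 members had an unadjusted p under 0.05, as did 2512 of all 21231 genes.

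In regeneration tails the log2 changes from 6 h to 72 h were 0.42 for lef1.L, 0.48 for lef1.S, 0.19 for sp8.L and 0.50 for sp8.S. None was called, with 1.54% of all genes called; 2 members had an unadjusted p under 0.05, and DESeq2 called 0. The value for sp8.L turned to -0.04 without regeneration 6 h B. Epidermis marker sums ran from 1696 to 4574 CPM at 6 h and from 2335 to 3122 CPM at 72 h. With them as a covariate, chosen after seeing the data, 3 members were called, lef1.L (0.65, adjusted p = 0.0019), lef1.S (0.60, adjusted p = 0.023) and sp8.L (0.54, adjusted p = 0.035). The 1.54% is not the background of that fit, whose share of all genes called is not given here. Alternative fits other than omissions called 258 to 1298 genes in this comparison, against 327 in the main fit.

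At 72 h 3 of the 4 members were called lower in refractory than in regeneration tails, against 1.51% of all genes called. For each of the 4 genes, no refractory library overlapped a regeneration library. How many of all genes tested were without overlap was not counted. The widest difference was that of sp8.L, at 47.4, 54.2, 41.4 and 49.4 CPM in refractory tails and 110, 167, 92.6 and 117 CPM in regeneration tails. Its log2 difference, refractory minus regeneration, was -1.34 ± 0.22 (adjusted p = 0.00041), and it was called in each of the 8 omissions of a library.

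For sp8.S the refractory libraries were at 22.4, 19.3, 20.7 and 25.4 CPM and the regeneration libraries at 50.7, 47.4, 29.0 and 57.0 CPM. The difference was -1.06 ± 0.26 (adjusted p = 0.021), and it was called in 2 of 8 omissions, with adjusted p of up to 0.100 in the others, which left out regeneration 72 h A, B or D or refractory 72 h A, B or C. It was also not called with the epidermis covariate (-0.87, adjusted p = 0.061). For lef1.L the refractory libraries, 115, 212, 255 and 186 CPM, all lay below the lowest regeneration library, 295 CPM. The difference was -0.76 ± 0.18 (adjusted p = 0.018), not called without regeneration 72 h B (adjusted p = 0.115), refractory 72 h A (0.057) or refractory 72 h D (0.065). For lef1.S the refractory libraries ran from 63.2 to 71.4 CPM and the regeneration libraries from 84.3 to 123 CPM. The difference was -0.58 ± 0.18 and was not called (adjusted p = 0.078); DESeq2 and the 27 libraries called it, at -0.57 and -0.59.

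Summed epidermis and anterior genes also differed between the periods at 72 h, though the ranges of the epidermis sums overlapped. The summed epidermis markers ran from 1714 to 2382 CPM in refractory tails at 72 h and from 2335 to 3122 CPM in regeneration tails. The medians of the epidermis sums were 2184 and 2526 CPM, and at 0 h they lay further apart, at 1695 and 2939 CPM. The summed retina and lens level ran from 963 to 1593 CPM in refractory tails at 72 h and from 627 to 900 CPM in regeneration tails. Of single genes at 72 h, 2 of 28 epidermis markers were called lower in refractory tails and 0 higher. Of 33 retina and lens genes 1 was called higher and 0 lower. With the summed retina, lens and forebrain level as a covariate, sp8.L was still called (-0.80, adjusted p = 0.033), and lef1.L (-0.41, adjusted p = 0.25) and sp8.S (-0.70, adjusted p = 0.49) were not. The difference between the periods in the change from 0 h to 72 h was -0.56 ± 0.25 for lef1.L (adjusted p = 0.54), -0.36 for lef1.S, -0.78 ± 0.32 for sp8.L (adjusted p = 0.44) and -0.75 ± 0.38 for sp8.S. No member was called for it, with 0.466% of all genes called; 2 members had an unadjusted p under 0.05, and DESeq2 called 0. With the summed epidermis markers as a covariate, also chosen after seeing the data, this difference was called for lef1.L (-0.72, adjusted p = 0.024) and sp8.L (-1.03, adjusted p = 0.0047). Whether this difference passed the threshold for lef1.L and sp8.L thus depended on that covariate. Whether the responses since 0 h differed between the periods is not settled by it. The share of all genes called in that fit is not given here. Alternative fits other than omissions called 102 to 611 genes for this difference, against 99 in the main fit.

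**Figure D3:**
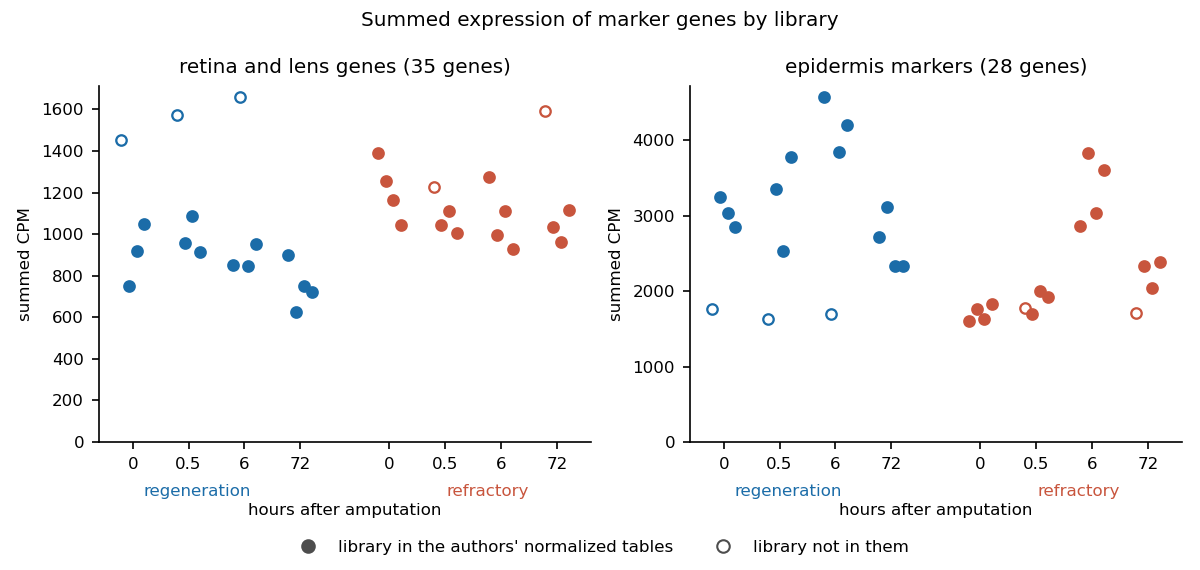
Summed CPM of retina and lens genes and of epidermis markers in each library, by period and time, with libraries not in the authors' normalized tables drawn open. The retina and lens sums of those 5 libraries are each the highest of their group, and the refractory epidermis sums at 6 h, 2860 to 3831 CPM, lie above those at 0 h.

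Ordered by group mean, lef1.L ran from 326 ± 39.6 CPM (SD, n = 4) in regeneration tails at 72 h through refractory 6 h (279 ± 10.7), regeneration 6 h (244 ± 81.4) and refractory 72 h (192 ± 58.7). The other groups lay from 122 ± 16.5 CPM at refractory 0 h to 141 ± 8.37 CPM at regeneration 0 h. Of neighbours in that order, only the first and second groups did not overlap. For sp8.L the order was regeneration 72 h (122 ± 32.2 CPM), refractory 6 h (115 ± 28.7) and regeneration 6 h (106 ± 39.2), and the lowest was refractory 0.5 h (33.9 ± 4.33). For sp8.S it was regeneration 72 h (46.0 ± 12.04), refractory 6 h (40.0 ± 14.8) and regeneration 6 h (32.4 ± 7.505), down to refractory 0.5 h (14.99 ± 1.84). So lef1.L, sp8.L and sp8.S had the same 3 groups on top in the same order, and all neighbours in the sp8 orders overlapped. For lef1.S the order was regeneration 72 h (103 ± 16.3 CPM), regeneration 6 h (73.8 ± 20.3) and refractory 72 h (68.8 ± 3.82), with refractory 6 h (56.1 ± 7.08) next to last, and all neighbours overlapped.

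The homeologs of lef1 thus parted at 6 h, which the ratio of their counts within each library shows directly. The ratio of lef1.L to lef1.S counts at refractory 0 h was 2.12, 2.69, 2.77 and 1.54, and at 6 h it was 4.28, 5.64, 4.89 and 5.24. The groups did not overlap, and the 6 h ratios were the highest group of the study. The log2 change of the ratio was 1.17 ± 0.20 with a 95% interval from 0.76 to 1.57. It was called by limma on the log2 ratios over 5584 homeolog pairs (adjusted p = 0.0009), where 0.537% of pairs were called, and it ranked 6 of them by p-value. It was called in each of the 8 omissions of a library, with log2 changes of 0.99 to 1.27 and adjusted p of at most 0.015. The ratio shows unequal change of the copies; it does not compare their levels, since neither transcript lengths nor the assignment of reads that fit both copies is stated.

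In regeneration tails the lef1 ratio was 1.77, 2.67, 1.98 and 2.32 at 0 h and 4.01, 2.80, 2.95 and 3.29 at 6 h. These groups did not overlap either, but the log2 change of 0.58 ± 0.20 was not called (adjusted p = 0.78), with 0.0179% of pairs called. At 72 h the ratio was 2.92, 3.12, 3.49 and 3.18, a log2 change of 0.55 ± 0.20 (adjusted p = 0.40) against 0.448% of pairs called. At refractory 72 h it was 1.61, 3.35, 3.65 and 2.63, a log2 change of 0.27 (adjusted p = 0.76) against 0.358% of pairs called. Both groups of 72 h lay between 0 h and the refractory 6 h peak in mean ratio, 3.18 and 2.81 against 5.01.

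The copies of sp8 were not shown to part. Group means of the sp8.L to sp8.S ratio ran from 2.21 at refractory 72 h to 3.18 at regeneration 6 h, and single libraries from 1.43 to 4.01. No change of this ratio was called. At refractory 6 h, the time of the largest rise of both copies, its log2 change was 0.44 with a 95% interval from -0.11 to 0.99 (adjusted p = 0.66), so a change of the size seen for lef1 lay outside the interval.

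**Figure D4:**
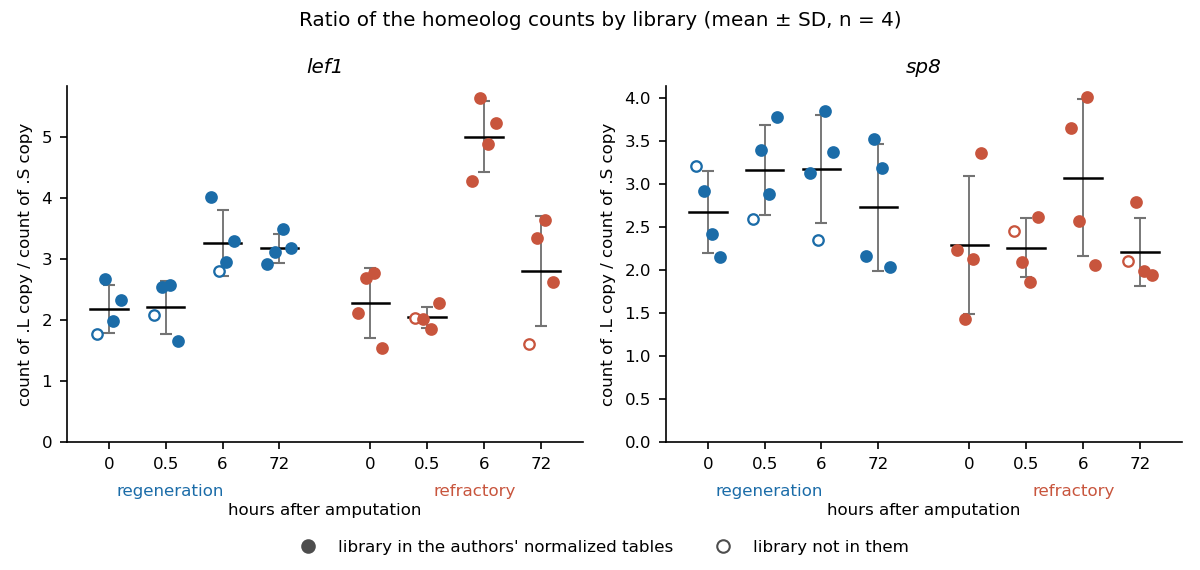
Ratio of .L to .S counts in each library for lef1 and sp8, by period and time, on a linear axis, with bars for the mean and SD. The 4 refractory 6 h libraries of lef1, at 4.28 to 5.64, all lie above the other lef1 libraries, while the sp8 libraries run from 1.43 to 4.01 with no such group.

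Genes of the tail tip epidermis, the setting of lef1 and sp8, gave 42 tested genes beside the members, out of 53 listed. At refractory 6 h 8 of the 42 rose and 0 fell, where 2.45% of all genes were called and 469 of 21231 rose, with a median log2 change of 0.22 against -0.02 over all genes tested. The smallest adjusted p was that of dlx5.S, a homeobox factor of ectoderm borders, at 260 ± 24.7 against 138 ± 6.52 CPM (SD, n = 4), a log2 change of 0.91 (adjusted p = 8.41e-05). The epidermal stem cell factor tp63.L went from 115 to 183 CPM (log2 0.68, adjusted p = 0.00048). The Notch ligand jag1.S went from 2.77 ± 1.71 to 15.9 ± 6.50 CPM, a log2 change of 2.51 (adjusted p = 0.0026). At regeneration 6 h 0 of the 42 were called by edgeR, against 0.273% of all genes. There 7 had an unadjusted p under 0.05, as did 1441 of all 21231 genes, and DESeq2 called 0 of the 42. In the 27 libraries 3 of 44 rose, with a median log2 change of 0.28 against 0.01 over all genes. The share of all genes called in those libraries is not given here.

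At regeneration 72 h 7 of the 42 rose and 0 fell, where 3.85% of all genes were called and 345 of 21231 rose, with a median of 0.59 against 0.02 over all genes. Among them, chosen after their values were seen, were dlx5.S (log2 0.70, adjusted p = 0.0029), the homeobox factors msx2.S (0.96, adjusted p = 0.0051) and msx1.L (0.70, adjusted p = 0.0094). At refractory 72 h 0 were called by edgeR, against 1.65% of all genes. There 3 had an unadjusted p under 0.05, as did 2199 of all 21231 genes. DESeq2 called 0 of the 42, and their median was 0.05 against 0.02 over all genes. From 6 h to 72 h in refractory tails 5 fell (msx1.L, dlx5.S, dlx5.L, tp63.S and bmp4.S) and 1 rose. Over all 21231 genes, 393 fell and 86 rose in that comparison. The 1 that rose, bmp2.L, went from no count in the 4 libraries to 2.64 ± 1.3996 CPM.

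Between the periods at 72 h, 8 of the 42 were lower in refractory tails and 0 were higher, where 1.51% of all genes were called and 186 of 21231 were lower, with a median of -0.71 against -0.01 over all genes. They were msx1.L, msx1.S, msx2.L, msx2.S, dlx3.L, dlx3.S, dlx5.S and vwde.L, all of them homeobox genes except vwde.L. For msx2.S the level was 52.6 ± 9.72 CPM in refractory and 128 ± 15.8 CPM in regeneration tails, a log2 difference of -1.28 (adjusted p = 0.00094), beside the -1.34 of sp8.L. The epidermis and anterior sums for this comparison are given above with the members. At 0 h edgeR called 0 of the 42 between the periods, against 0.669% of all genes. Their median was -0.18 against -0.01 over all genes. Of the 42, 6 had an unadjusted p under 0.05 at 0 h, as did 1848 of all 21231 genes, and DESeq2 called 0. In the 27 libraries 4 of 44 were lower in refractory tails at 0 h and 0 were higher, with a median of -0.24 against 0.01. The share of all genes called in those libraries is not given here. At 6 h 3 of the 42 were lower in refractory tails, dlx3.L, dlx3.S and bmp2.L, where 138 of 21231 genes were lower. The difference between the periods in the 72 h change was called for 0 of the 42, against 0.466% of all genes. Its median was -0.52 against 0.02 over all genes, and DESeq2 called 0 of the 42. Of the 42, 8 had an unadjusted p under 0.05, as did 1748 of all 21231 genes.

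**Figure D5:**
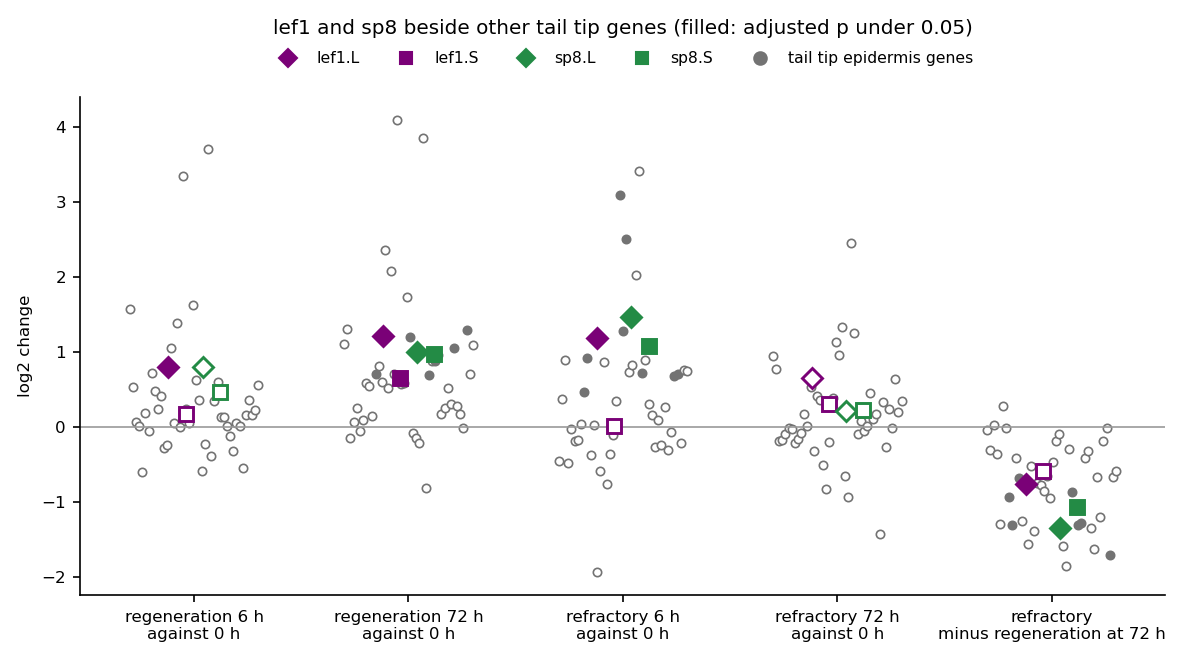
Log2 changes of the tested tail tip epidermis genes, with called genes filled and the lef1 and sp8 copies drawn as larger symbols, for the 6 h and 72 h comparisons and for refractory minus regeneration at 72 h; bmp2.L, without a count in any refractory 6 h library, is left out of the refractory 6 h comparison. In the comparison of the periods at 72 h, 40 of the 42 genes lie below 0.

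Of 38 tested genes known as canonical Wnt targets, 2 rose at regeneration 72 h, where 345 of all 21231 genes rose and 3.85% were called in either direction: myc.S, a growth regulator, from 39.1 to 77.7 CPM (log2 0.98, adjusted p = 0.00026), and sp5l.L, an Sp family factor, from 1.04 ± 1.02 to 12.9 ± 4.19 CPM (log2 3.53, adjusted p = 0.048), which DESeq2 did not call. At refractory 6 h, where lef1.L rose, edgeR called 0 of 38, against 2.45% of all genes, and DESeq2 called 0. Of the 38, 4 had an unadjusted p under 0.05, as did 2491 of all 21231 genes. The usual readout axin2, an inhibitor that Wnt induces, had log2 changes of 0.32 for axin2.L and 0.35 for axin2.S there, neither called. Between the periods at 0.5 h, 3 of the 38 were higher in refractory tails and 0 were lower. Over all 21231 genes, 174 were higher and 77 lower. The 3 were myc.S (log2 0.80, adjusted p = 0.013), myc.L (0.79, adjusted p = 0.021) and znrf3.L (2.36, adjusted p = 0.046). DESeq2 called 3 as well, and 328 of all genes. In the 27 libraries 1 of 39 was higher. Of 24 beta-catenin partners and co-repressors 1 rose at refractory 6 h, where 469 of all 21231 genes rose: ctnnb1.S, a copy of beta-catenin itself, from 73.2 ± 18.9 to 154 ± 25.8 CPM (log2 1.07 ± 0.21, adjusted p = 0.0011). At regeneration 72 h ctnnb1.S rose as well (0.70, adjusted p = 0.044).

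Among 15 tested genes of the Sp family other than sp8, sp5l.L was the 1 called at regeneration 72 h, against 3.85% of all genes. It is also counted among the Wnt targets above. Another gene of the family, sp9.L, changed by 0.52 (adjusted p = 0.80). Of the 11 tested partners in fin and limb tips, 2 rose at regeneration 72 h, msx2.S and msx2.L, against 3.85% of all genes called. At 72 h 4 were lower in refractory than in regeneration tails, msx2.S, msx2.L, dlx3.S and dlx3.L, against 1.51%. These genes are also counted among the tail tip epidermis genes above, so they are not a separate set.

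The epidermis markers give the wider setting. They share tp63.L and tp63.S with the tail tip epidermis genes above, so the lists are not separate sets. Of the 28 markers, 9 rose and 0 fell at refractory 6 h, where 469 of all 21231 genes rose and 51 fell. First among them was cldn4.L, a tight junction protein, from 140 ± 25.4 to 413 ± 108 CPM (log2 1.56, adjusted p = 2.27e-06). Next came tgm1.L, a cross-linking enzyme of the skin barrier, from 17.0 to 71.1 CPM (log2 2.07, adjusted p = 9.03e-06). At regeneration 6 h 0 were called by edgeR, against 0.273% of all genes. There 7 had an unadjusted p under 0.05, as did 1441 of all 21231 genes, and DESeq2 called 1 of the 28 and 110 of all genes. In the 27 libraries 4 of 28 rose at regeneration 6 h, with a median log2 change of 0.41 against 0.01 over all genes. At refractory 6 h 12 rose there, with a median of 0.69 against -0.02. The share of all genes called in those libraries is not given here, so the counts have no such background. From 6 h to 72 h in refractory tails 7 fell and 1 rose, where 393 of all 21231 genes fell and 86 rose. The fall of sp8.L came over the same hours.

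The genes most like each member were sought among 14478 genes by Pearson's r over the 8 group means, as a description without a test; r over the 32 libraries follows each. For lef1.L they were rab35l.L (0.996; 0.589), cdc42se1.S (0.989; 0.420), ctnnb1.L (0.985; 0.857), sntb2.L (0.980; 0.512) and tbc1d17.L (0.977; 0.441). For lef1.S they were lypla2.L (0.972), frem3.L (0.969), actr2.L (0.967), prickle1.S (0.966) and znf706l.S (0.962), with r over libraries from 0.452 to 0.794.

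The likest of sp8.L were rbm7.L (0.992), phf20.L (0.980), fam83g.S (0.969), fam3d.S (0.962) and its own homeolog sp8.S (0.959), which had the highest r over libraries, 0.864. The likest of sp8.S were ctnnb1.L (0.981), rab35l.L (0.975), actr1a.S (0.972), siae.L (0.970) and dennd2c.L (0.963). Among the members lef1.L was closer to sp8.S (0.960) and sp8.L (0.905) than to its own homeolog lef1.S (0.616). These values rest on 8 group means of libraries that share their preparation.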

How the data were processed

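Read counts per gene, unnormalized, come from the deposited raw table of each period. STAR 2.7.9a and HTSeq 0.6.1p1 are among the tools in the submitters' processing notes, beside DESeq2 1.32.0 in R 4.1.0. The genome build is not given in the sources used here. The authors' normalized tables hold a signal, the counts of 27 of the 32 libraries divided by 1 size factor each; they served to mark the other 5. Per the labels' protocols 100 ng of RNA went into each library. Counts were fitted in R 4.3.3 with edgeR 4.0.16 (TMM, filterByExpr, robust quasi-likelihood; 8 groups, 24 residual degrees of freedom) in 15 contrasts. Log2 homeolog ratios, with 0.5 added to each count, were fitted with limma 3.58.1; DESeq2 1.42.0 was an alternative. Both were checked on simulated counts. Replicate spread may be partly technical. The members, gene lists, tests and alternatives were chosen with earlier results of these data known. The rule for naming genes took, per list, up to 3 called with the smallest adjusted p at 6 h, and the 5 likest each member. Other genes were named outside that rule, and not every such gene is marked. They include axin2, sp9.L, the tissue genes and those named for comparisons at 0.5 h or 72 h. Reads shared by homeologs leave their split uncertain.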

Additional observations from a re-analysis of the deposited data

Results flagged for a closer look

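At regeneration 0.5 h the lef1.L level of library C, 155 CPM, stood apart from the other libraries of its group, which lay between 129 and 132 CPM. The gap was 0.8766 of the group's range, above Dixon's critical value for 4 samples. It was the 1 group marked of 48 examined, and chance marks about 1 in 20. No member was called at regeneration 0.5 h with or without that library.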

How the results depend on the processing

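Of 1292 recomputed values of the members, 1153 kept their direction and their side of the threshold, 37 lost a call, 37 gained one and 65 changed sign, 0 of these last from a called value. These include a fit with the homeologs summed to 1 row per gene, whose value was set beside each copy and is not a value of that copy. All values here are log2 changes or differences, those between the periods as refractory minus regeneration; causes were not tested. The replicate letters did not pair the samples, with correlations of same-letter deviations from -0.15 to 0.20, 1 of 32 over 0.1, and 12 of 32 best with their own letter. A replicate block ended 1 call, lef1.L at regeneration 6 h (0.78, adjusted p = 0.078), which was also lost with the groups compared alone (0.79) and the period's libraries alone (0.79). At refractory 72 h lef1.L gained a call with DESeq2 (0.64), RLE size factors (0.64), the period's libraries (0.64), the 27 libraries (0.82), the epidermis covariate (0.50) and the anterior covariate (0.59). The summed row of lef1 was called there too (0.56). For lef1.S between the periods at 72 h, DESeq2 (-0.57), the groups compared alone (-0.57) and the 27 libraries (-0.59) made a call. The summed row of lef1, which holds the counts of lef1.L as well, was called there (-0.71). In the 27 libraries sp8.L was called at regeneration 6 h (0.92) and sp8.S not at regeneration 72 h (0.80). Signs turned there for lef1.S (0.016) and sp8.L (0.048) at regeneration 0.5 h, sp8.L from 6 to 72 h in regeneration tails (-0.037) and between the periods at 6 h (-0.100), sp8.S in the difference of the 0.5 h changes (0.058), and the ratios of lef1 at regeneration 0.5 h (-0.061) and sp8 at refractory 0.5 h (-0.0083) and 72 h (0.016). With the copies of lef1 summed to 1 row, lef1 was called at regeneration 6 h (0.62) and refractory 6 h (0.90), where lef1.S alone was not. The summed value had the opposite sign to lef1.S alone from 6 to 72 h in refractory tails (-0.35), between the periods at 6 h (0.079) and in the difference of the 6 h changes (0.28). With no filter, lef1.S at refractory 6 h was -2.92e-05, and with 1 added to counts the sp8 ratio at refractory 72 h was 0.0014. From 6 to 72 h in refractory tails lef1.L gained a call with DESeq2 (-0.55), the period's libraries (-0.55) and the anterior covariate (-0.52), and sp8.S with DESeq2 (-0.87) and the 27 libraries (-0.88). The summed row of sp8, which holds the counts of sp8.L as well, was called there (-1.13). Between the periods sp8.L gained one at 0 h in the 27 libraries (-0.65), and at 0.5 h in the groups compared alone (-0.82), the 27 libraries (-1.01) and with the anterior covariate (-0.80). The epidermis covariate gave calls from 6 to 72 h in regeneration tails to lef1.L (0.65), lef1.S (0.60) and sp8.L (0.54), and in the difference of the 72 h changes to lef1.L (-0.72) and sp8.L (-1.03). It ended the sp8.S calls at refractory 6 h (0.49) and between the periods at 72 h (-0.87), and turned lef1.L at refractory 0.5 h (-0.013), lef1.S at refractory 6 h (-0.24), sp8.L at refractory 72 h (-0.026), lef1.L (0.11) and sp8.S (0.085) between the periods at 0 h, and lef1.L (0.14) and lef1.S (0.11) at 0.5 h. The anterior covariate gave a call of sp8.L at regeneration 6 h (0.81), ended those of lef1.S (0.57) and sp8.S (0.75) at regeneration 72 h and of lef1.L (-0.41) and sp8.S (-0.70) between the periods at 72 h, and turned lef1.L (0.029) and sp8.L (0.043) at regeneration 0.5 h, lef1.L (-0.052) at refractory 0.5 h, lef1.S (-0.012) at refractory 6 h, sp8.L (-0.17) from 6 to 72 h in regeneration tails and lef1.L (-0.082) in the difference of the 0.5 h changes. Leaving out 1 library at a time gave these ranges. At regeneration 0.5 h lef1.S ran from -0.18 to 0.037, sp8.L from -0.14 to 0.15 and the lef1 ratio from -0.083 to 0.15. At regeneration 6 h lef1.L ran from 0.64 to 1.01 and sp8.L from 0.66 to 1.03. At regeneration 72 h lef1.S ran from 0.56 to 0.74, sp8.S from 0.81 to 1.14 and the sp8 ratio from -0.13 to 0.13. At refractory 0.5 h lef1.L ran from -0.0060 to 0.14 and the sp8 ratio from -0.17 to 0.24. At refractory 6 h lef1.S ran from -0.11 to 0.20 and sp8.S from 0.90 to 1.29. At refractory 72 h lef1.L ran from 0.48 to 0.83 and the sp8 ratio from -0.21 to 0.21. From 6 to 72 h sp8.L ran from -0.036 to 0.34 in regeneration tails, and in refractory tails lef1.L from -0.70 to -0.36 and sp8.S from -1.06 to -0.67. Between the periods at 0.5 h lef1.S ran from -0.12 to 0.099 and sp8.L from -0.99 to -0.70. Between the periods at 6 h lef1.L ran from -0.0199 to 0.34 and sp8.L from -0.12 to 0.25. Between the periods at 72 h lef1.L ran from -0.93 to -0.58 and sp8.S from -1.23 to -0.94. In the difference of the 0.5 h changes sp8.S ran from -0.16 to 0.14. In the difference of the 6 h changes lef1.S ran from -0.35 to 0.012. Counts of genes called, with their range over all alternatives and omissions, were as follows. Against 0 h they were 13 (2 to 28) for regeneration 0.5 h, 58 (2 to 323) for regeneration 6 h, 818 (493 to 1377) for regeneration 72 h, 28 (18 to 66) for refractory 0.5 h, 520 (342 to 1062) for refractory 6 h, 350 (180 to 752) for refractory 72 h. They were 327 (143 to 1298) for regeneration from 6 to 72 h, 479 (317 to 836) for refractory from 6 to 72 h, 142 (49 to 520) between the periods at 0 h, 251 (145 to 832) between the periods at 0.5 h, 389 (207 to 744) between the periods at 6 h, 321 (75 to 660) between the periods at 72 h. For differences between the periods in a change they were 0 (0 to 1) for the difference of the 0.5 h changes, 13 (9 to 109) for the difference of the 6 h changes, 99 (59 to 611) for the difference of the 72 h changes. Homeolog pairs called numbered 0 (0 to 2) for regeneration 0.5 h, 1 (0 to 9) for regeneration 6 h, 25 (14 to 51) for regeneration 72 h, 1 (0 to 2) for refractory 0.5 h, 30 (14 to 63) for refractory 6 h, 20 (7 to 41) for refractory 72 h. Totals of 1868637 to 4022871 counts per library limit most the precision of sp8.S, the member with the fewest counts.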
